A study of Mus musculus with 50 samples.

Results

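The 37 genes described here are interferon-stimulated genes, the genes that a cell switches on when type I interferon binds its receptor. They were chosen by symbol, as the rows of the deposited count table whose Ensembl identifier maps to 1 of 37 listed symbols, out of 37469 genes in all. The rule uses symbols and no measured value, though the list was drawn up with earlier results of these data known. All 37 were found and passed the filter on low counts. They were followed through bulk RNA sequencing of 48 whole mouse sarcomas in 8 groups and in 2 single libraries of the line 402230.

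All tumors were p53/MCA sarcomas of 129/SvJae mice. Primary tumors arose in Trp53 fl/fl mice 6 to 10 weeks old after Cre recombinase carried by an adenovirus deleted Trp53 in the gastrocnemius muscle, where 300 µg of the carcinogen 3-methylcholanthrene (MCA) was then injected. Transplant tumors grew from 50000 cells of the line 402230 injected into the same muscle of syngeneic mice, so that all 16 transplants stem from a single cell line, whereas the 32 primary tumors each arose on their own. When its tumor had grown to the size set for treatment, each mouse received 200 µg of an antibody against the checkpoint receptor PD-1 (muDX400) or of an isotype control, followed by 0 or 20 Gy to the hind limb, and tumors were taken 3 days later. There were 8 primary and 4 transplant libraries per treatment, and tumors given the isotype antibody and 0 Gy are called untreated. All groups, the untreated ones included, share the deletion of Trp53 and the carcinogen in their origin.

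Type I interferons, the many interferon alphas and interferon beta, are released by cells that sense foreign or misplaced nucleic acid. They bind the receptor made of IFNAR1 and IFNAR2, whose kinases JAK1 and TYK2 phosphorylate STAT2, which joins IRF9 in the factor ISGF3. ISGF3 binds the interferon-stimulated response element, whose core is a pair of GAAA boxes, in front of genes whose products block viral replication, sense nucleic acid or feed back on the pathway. Interferon gamma, made mainly by T cells and NK cells, acts through another receptor on a set of genes that overlaps with this one.

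The sequence just before the start site of 7 of the genes described below is shown because it carries the letters of that element. Promoter windows of 300 bases from RefSeq (GRCm38.p6; 250 before to 50 after the start site) were matched for 28 of the 37 genes. The letters GAAANNGAAA, searched on both strands, stood in 13 of the 28 windows (46.4%) and in 3.99% of the windows of 27025 symbols. The longer GAAANNGAAACT, which contains it, stood in 7 of 28 (25.0%) and in 0.303% of all. Neither is particular to the 37 genes. Of 13 windows of the interferon gamma pathway genes described below, 8 held the shorter letters and 5 the longer. The windows below run 5′ to 3′ toward the start site over the 200 bases before it, and capitals mark GAAANNGAAA or its reverse complement. They lie at chr4:156200819-156201018 (- strand), chr19:34640689-34640888 (+ strand), chr19:34583329-34583528 (+ strand), chr19:34607757-34607956 (+ strand), chr5:120907526-120907725 (- strand), chr12:26456453-26456652 (- strand) and chr8:71537473-71537672 (- strand).
Isg15: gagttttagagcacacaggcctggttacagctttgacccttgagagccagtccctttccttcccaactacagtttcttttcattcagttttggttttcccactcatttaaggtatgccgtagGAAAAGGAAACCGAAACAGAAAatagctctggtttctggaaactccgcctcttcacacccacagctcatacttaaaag
Ifit1: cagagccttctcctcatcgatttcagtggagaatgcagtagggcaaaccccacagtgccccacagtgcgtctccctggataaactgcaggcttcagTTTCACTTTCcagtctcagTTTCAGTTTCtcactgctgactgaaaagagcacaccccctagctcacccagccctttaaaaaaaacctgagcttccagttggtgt
Ifit3: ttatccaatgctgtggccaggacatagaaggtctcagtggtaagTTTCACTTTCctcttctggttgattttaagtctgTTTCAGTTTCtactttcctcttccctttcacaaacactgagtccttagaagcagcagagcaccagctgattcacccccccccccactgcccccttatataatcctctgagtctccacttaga
Ifit3b: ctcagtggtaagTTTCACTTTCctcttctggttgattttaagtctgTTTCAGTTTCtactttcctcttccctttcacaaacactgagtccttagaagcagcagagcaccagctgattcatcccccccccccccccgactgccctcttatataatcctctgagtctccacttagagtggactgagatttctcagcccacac
Oas1a: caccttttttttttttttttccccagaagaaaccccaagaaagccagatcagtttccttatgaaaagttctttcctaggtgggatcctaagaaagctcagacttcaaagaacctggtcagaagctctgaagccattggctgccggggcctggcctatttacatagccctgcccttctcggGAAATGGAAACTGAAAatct
Rsad2: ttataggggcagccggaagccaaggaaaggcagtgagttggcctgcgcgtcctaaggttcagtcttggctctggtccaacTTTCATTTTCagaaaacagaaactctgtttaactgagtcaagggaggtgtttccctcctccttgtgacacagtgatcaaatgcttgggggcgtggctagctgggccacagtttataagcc
Bst2: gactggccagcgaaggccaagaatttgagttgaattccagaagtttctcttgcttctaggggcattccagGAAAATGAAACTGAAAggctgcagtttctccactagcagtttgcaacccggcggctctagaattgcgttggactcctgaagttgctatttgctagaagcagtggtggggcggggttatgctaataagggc
Ifit3 and Ifit3b share the stretch that holds both of their matches, and both lie in the IFIT cluster on chromosome 19. Isg15 holds 3 matches that overlap, 56 to 78 bases before the start site, and in Oas1a the matches end 4 bases before it. In Rsad2 a single match lies 110 to 120 bases before the start site. A match is a description of letters and was not tested as a binding site.

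Total counts ran from 31810461 to 54008259 per tumor library. A gene's level is its CPM, the count brought to a common total for library size and composition, and a log2 fold change of 1 is a doubling. Differences were tested with edgeR's quasi-likelihood test over 19327 genes, and a gene is said to have risen, fallen or changed where its p, adjusted by the Benjamini-Hochberg method over those genes, was under 0.05. Each tumor library's title carries a number of its own, and the labels say nothing more of how libraries of a group were replicated, so that p-values measure the spread between these libraries. As a check of the labelled tissue, the summed CPM of 5 genes of fibroblastic and sarcoma cells (Col1a1, Col1a2, Col3a1, Pdgfrb and Dcn) ran in untreated tumors from 11268 to 34156 in primaries and from 7709 to 11204 in transplants, and skeletal muscle genes varied widely, from 46.3 to 4934 and from 60.8 to 16414.

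Both libraries of line 402230 stood against their labels. The library labelled parental tumor held hardly any RNA of host cells: Ptprc, the gene of the leukocyte surface protein CD45, was at 0.112 CPM, the endothelial genes summed to 0.581 CPM, and Adgre1, Itgam and Ly6c2 of the macrophages had 0 counts. The library labelled cells held Ptprc at 81.9 CPM and macrophage genes at a summed 988 CPM, against 67.7 to 141.5 and 1395 to 2551 CPM in untreated primaries. Both are therefore described by their labels only, with no direction drawn from them, and no test of the tumors used them except where stated.

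Radiation raised the whole set in both tumor models. In primary tumors given the isotype antibody, all 37 genes rose 3 days after 20 Gy, against 9.19% of the 19327 genes tested that rose, with a median log2 fold change of 1.90 (3.74-fold; single genes 1.98- to 6.92-fold) where the median of all genes was -0.01. In transplants all 37 also rose, against a background of 1.82%, with a median of 2.10 (4.29-fold; 2.18- to 10.6-fold) and a median of all genes of -0.03. Adjusted p ran up to 0.00430 in primaries and up to 0.0463 in transplants. In transplants, every irradiated library lay above every untreated library for each of the 37 genes, a pattern seen in 9.03% of all genes. In primaries this held for 11 of 37 genes (1.45% of all genes). Of the 26 that overlapped, 24 no longer did so without untreated replicate 4, and 9 no longer did so without irradiated replicate 6. Some genes count in both. Without untreated replicate 4 all 37 were still called and the median was 2.43. The transplant count rested on single libraries: it was 15, 20 and 12 without untreated replicates 1, 2 and 4 and 22 without irradiated replicate 1.

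**Figure D1:**
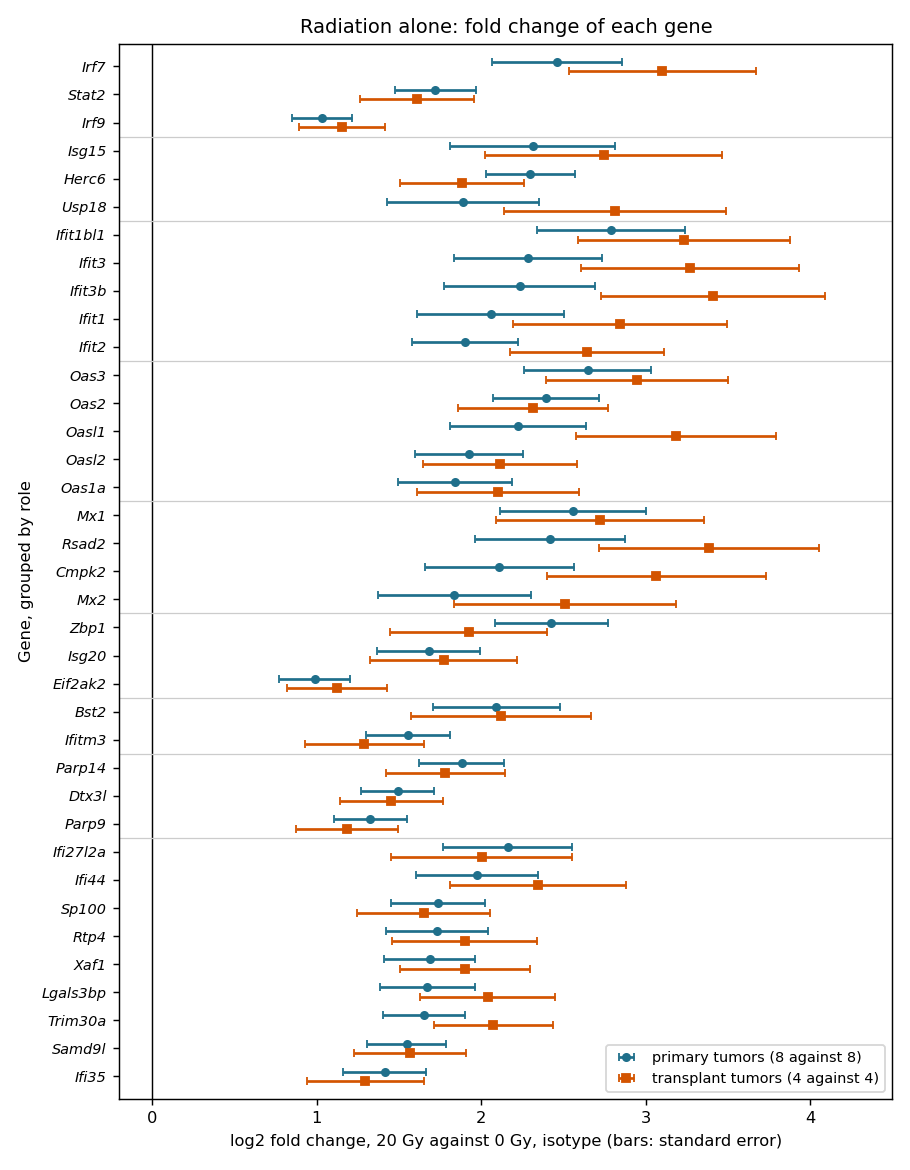
Log2 fold change of each of the 37 genes after 20 Gy against 0 Gy with isotype antibody, in primary tumors (circles, 8 against 8 libraries) and transplants (squares, 4 against 4), grouped by role between grey lines, with standard errors as bars. All 74 points lie right of 0, between 0.99 and 3.41, and Eif2ak2 and Irf9 sit lowest in both models.

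The factors that carry the signal rose with their targets. Values given below with a standard error (SE) are log2 fold changes of irradiated against unirradiated libraries unless another comparison is named. Irf7, the factor that amplifies interferon alpha transcription, had a median of 132.2 CPM (range 50.5 to 739) in untreated and 1135 CPM (range 749 to 1306) in irradiated primaries, a log2 fold change of 2.46 ± 0.39 (SE, adjusted p = 2.20e-05). The lowest irradiated library lay just above the highest untreated one. In transplants the 4 libraries went from 106.2, 158, 216 and 108.7 CPM to 1801, 976, 1032 and 1247 CPM, 3.10 ± 0.57 (SE, adjusted p = 0.00228). Stat2, a subunit of ISGF3, rose from 65.4 CPM (range 40.2 to 215) to 268 CPM (range 218 to 336) in primaries, 1.72 ± 0.25 (SE, adjusted p = 5.13e-06), and from 61.9, 59.8, 117.3 and 46.1 CPM to 204, 207, 231 and 227 CPM in transplants, 1.61 ± 0.35 (SE, adjusted p = 0.00734). Its ranges did not overlap in either model. Irf9, the DNA-binding subunit of ISGF3, had nearly the smallest change of the set, 1.03 ± 0.18 (SE, adjusted p = 9.30e-05) in primaries and 1.15 ± 0.26 (SE, adjusted p = 0.0114) in transplants.

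Isg15, a ubiquitin-like protein that is attached to other proteins, and Usp18, the protease that removes it and restrains the receptor, both rose. Isg15 had a median of 69.2 CPM (range 24.1 to 368) in untreated and 464 CPM (range 173 to 842) in irradiated primaries, 2.31 ± 0.50 (SE, adjusted p = 0.000965). The highest untreated library, replicate 4, lay within the irradiated range. In transplants it was at 60.0, 69.6, 71.8 and 52.4 CPM before and 788, 328, 256 and 327 CPM after 20 Gy, 2.74 ± 0.72 (SE, adjusted p = 0.0320), with irradiated replicate 1 far above the other 3. Usp18 went from a median of 25.7 to 140.4 CPM in primaries, 1.89 ± 0.46 (SE, adjusted p = 0.00308), and from 21.5, 23.7, 30.9 and 16.3 CPM to 266, 129.6, 106.5 and 148.4 CPM in transplants, 2.81 ± 0.67 (SE, adjusted p = 0.0179). Herc6, a ligase for ISG15 in mice, also rose in both models.

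The IFIT genes, which lie in a cluster on chromosome 19 and encode proteins that bind foreign RNA, had median log2 fold changes over 5 genes of 2.23 in primaries and 3.23 in transplants, the latter the largest median of any role in that model. Ifit1 rose from 60.4 CPM (range 18.1 to 235) to 286 CPM (range 127.4 to 577) in primaries, 2.06 ± 0.45 (SE, adjusted p = 0.000966), and from 33.5, 33.7, 53.5 and 27.2 CPM to 445, 222, 164 and 231 CPM in transplants, 2.84 ± 0.65 (SE, adjusted p = 0.0126). Ifit3 rose from 84.4 CPM (range 23.9 to 382) to 527 CPM (range 196 to 851), 2.28 ± 0.45 (SE, adjusted p = 0.000330), and from 41.8, 48.4, 71.5 and 38.6 CPM to 831, 373, 295 and 432 CPM, 3.27 ± 0.66 (SE, adjusted p = 0.00424). For both genes the transplant groups were far apart, while untreated primary replicate 4 reached into the irradiated range. Ifit1bl1 had the largest change in primaries, 2.79 ± 0.45 (SE, adjusted p = 2.37e-05), from a median of 3.76 to 41.1 CPM. Ifit3b had the largest in transplants, 3.41 ± 0.68 (SE, adjusted p = 0.00360). Ifit3 and Ifit3b are near copies, so that their split of reads is uncertain.

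Active OAS enzymes make the messenger that activates RNase L when double-stranded RNA is bound. All 5 genes of the family, the OAS-like Oasl1 and Oasl2 among them, rose in both models (medians 2.22 and 2.31). Oas1a rose from 30.7 CPM (range 17.6 to 145.2) to 145.3 CPM (range 88.3 to 239) in primaries, 1.84 ± 0.35 (SE, adjusted p = 0.000185), and from 32.9, 41.4, 49.4 and 27.7 CPM to 255, 125.9, 128.1 and 140.7 CPM in transplants, 2.10 ± 0.50 (SE, adjusted p = 0.0157). Oas3 had the second largest change in primaries, 2.65 ± 0.39 (SE, adjusted p = 6.93e-06), and its ranges did not overlap there (11.7 to 94.1 against 104.7 to 299 CPM). Oasl2, an OAS-like protein, rose from 72.3 CPM (range 26.8 to 220.4) to 327 CPM (range 197 to 529), 1.92 ± 0.33 (SE, adjusted p = 5.10e-05), and from 68.8, 68.5, 110.8 and 43.8 CPM to 337, 313, 273 and 342 CPM, 2.11 ± 0.47 (SE, adjusted p = 0.00953). In transplants both groups of each gene were separate.

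Mx1, a GTPase that blocks viral replication, and Rsad2, which encodes viperin, an enzyme that makes a chain-terminating nucleotide, stood among the most changed genes. Mx1 rose from 16.0 CPM (range 3.61 to 71.2) to 102.4 CPM (range 57.9 to 311) in primaries, 2.56 ± 0.44 (SE, adjusted p = 6.44e-05), and from 18.5, 12.1, 21.5 and 14.2 CPM to 178, 101.3, 67.5 and 91.4 CPM in transplants, 2.72 ± 0.63 (SE, adjusted p = 0.0138). Rsad2 rose from 22.4 CPM (range 8.63 to 73.1) to 144.8 CPM (range 60.8 to 269), 2.42 ± 0.46 (SE, adjusted p = 0.000185), and from 12.5, 13.5, 25.1 and 10.3 CPM to 242, 145.4, 98.3 and 155 CPM, 3.39 ± 0.67 (SE, adjusted p = 0.00357). For both, every irradiated transplant was far above the highest untreated one, whereas the primary groups overlapped at their edges. Mx2 and Cmpk2, which neighbours Rsad2 on chromosome 12 and supplies its nucleotide substrate, rose as well.

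Among sensors, Zbp1, which binds Z-form nucleic acid and can start necroptosis, rose from 37.7 CPM (range 14.3 to 139.1) to 259.8 CPM (range 171 to 298) in primaries, 2.43 ± 0.34 (SE, adjusted p = 4.46e-06), and from 71.4, 79.2, 111.1 and 39.7 CPM to 351, 256, 251 and 285 CPM in transplants, 1.92 ± 0.48 (SE, adjusted p = 0.0215). Its groups did not overlap in either model. Eif2ak2, which encodes PKR, the kinase that halts translation when it binds double-stranded RNA, changed least of all 37 genes in both models, 0.99 ± 0.22 (SE, adjusted p = 0.00100) and 1.12 ± 0.31 (SE, adjusted p = 0.0391).

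Bst2, which encodes tetherin, a membrane protein that holds budding virus at the cell surface, rose from 120.6 CPM (range 57.4 to 619) to 686 CPM (range 398 to 1285) in primaries, 2.09 ± 0.39 (SE, adjusted p = 0.000139), and from 159, 203, 226 and 116.3 CPM to 1249, 594, 583 and 637 CPM in transplants, 2.12 ± 0.55 (SE, adjusted p = 0.0285). Ifitm3, which blocks the entry of virus through endosomes, rose from 283 CPM (range 209.7 to 1067) to 1099.6 CPM (range 726 to 1468), 1.55 ± 0.26 (SE, adjusted p = 3.43e-05), and from 435, 544, 592 and 322 CPM to 1431, 1058, 1083 and 1060.3 CPM, 1.29 ± 0.36 (SE, adjusted p = 0.0463). Untreated primary replicate 4 was the only untreated library in the irradiated range of both genes. Lgals3bp, a secreted glycoprotein that binds galectins, rose from 189.5 CPM (range 123.4 to 584) to 678 CPM (range 357 to 1283), 1.67 ± 0.29 (SE, adjusted p = 5.28e-05), and from 210.2, 231, 329 and 123.2 CPM to 968, 857, 821 and 1030.4 CPM, 2.04 ± 0.41 (SE, adjusted p = 0.00379). The ADP-ribosylation genes Parp9, Parp14 and Dtx3l rose by medians of 1.49 in primaries and 1.45 in transplants on the log2 scale, the smallest median of any role in each model. Parp9 and Dtx3l overlap on opposite strands of chromosome 16 (35938470 to 35939151, GRCm38), and whether reads were counted by strand is not given in the sources used here, so that their counts are uncertain.

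Leukocyte RNA rose beside the 37 genes. Ptprc rose by 1.07 ± 0.29 (SE, adjusted p = 0.00817) in primaries and 1.57 ± 0.42 (SE, adjusted p = 0.0355) in transplants on the log2 scale, from medians of 81.5 to 159 CPM and of 127.9 to 457 CPM. The summed CPM of 10 macrophage and monocyte markers ran from 1395 to 2551 in untreated and from 2072 to 4279 in irradiated primaries, and from 1497 to 2309 and from 2999 to 4249 in transplants, with no overlap there. Of these markers 7 of 10 rose in primaries and 1 of 10 in transplants, and Ly6c2, a marker of inflammatory monocytes, had log2 fold changes of 3.03 and 2.67 (adjusted p = 0.000108 and 0.0532). Of 5 NK cell and 6 T cell markers, 0 passed edgeR's or DESeq2's threshold in either model (3 and 0 at an unadjusted p under 0.05 in primaries, 1 and 0 in transplants). Summed, the NK cell markers ran from 7.04 to 35.2 CPM in untreated and 45.0 to 68.4 CPM in irradiated transplants, with no overlap. In primaries their sum had a median of 12.1 CPM (5.33 to 88.6) untreated and 34.9 CPM (21.5 to 93.0) irradiated. The T cell sums overlapped in both models, with medians of 20.3 and 34.4 CPM in primaries and 69.3 and 64.6 CPM in transplants. Of 5 neutrophil markers 2 rose in primaries (Csf3r and Cxcr2, 4 by DESeq2), with a median of the 5 log2 fold changes of 2.48. In transplants 0 passed by either tool (1 at an unadjusted p under 0.05), with a median of -0.56. The sum of these markers went the other way there. Its median was 96.4 CPM (64.2 to 213.1) in untreated and 143.1 CPM (122.6 to 182.3) in irradiated transplants, with overlap. A direction for neutrophil RNA in transplants can therefore not be read from these values. The part of these cell types in the result was not tested, and in whole tumors more cells of a type and more RNA per cell cannot be told apart.

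**Figure D2:**
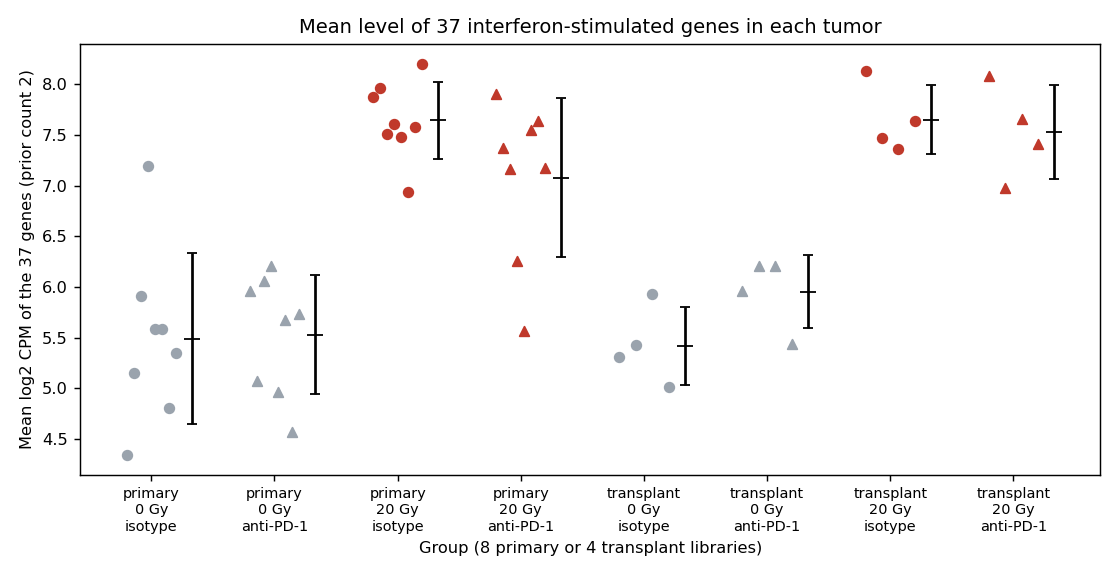
Mean log2 CPM of the 37 genes in each of 48 tumors by group (grey, 0 Gy; red, 20 Gy; circles, isotype; triangles, anti-PD-1), with the group mean (tick) and SD (bar) to the right of the points. Irradiated groups average 7.08 to 7.65 and unirradiated groups 5.42 to 5.95. Untreated primary replicate 4 (7.19) is the highest of its group, and irradiated anti-PD-1 primary replicate 5 (5.56) the lowest of its own.

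Under anti-PD-1, radiation again went with higher levels of the set. In primaries all 37 genes rose, with a median log2 fold change of 1.61 (3.06-fold; 1.74- to 5.92-fold) against 7.92% of all genes that rose. Herc6 and Ifitm3 alone of the 37 had every irradiated library above every unirradiated one (0.279% of all genes). For 18 of the other 35 the overlap was gone without irradiated replicate 5. Ifit1bl1 changed most, 2.56 ± 0.44 (SE, adjusted p = 0.000214), followed by Rsad2, 2.39 ± 0.45 (SE, adjusted p = 0.000604), and Oas3, 2.28 ± 0.38 (SE, adjusted p = 0.000142). Eif2ak2, Irf9 and Ifi35 changed least, by 0.80, 0.80 and 1.02. In the same comparison Ptprc rose by 0.87 ± 0.29 (SE, adjusted p = 0.0450). Higher as well were 5 of 10 macrophage, 2 of 5 neutrophil and 1 of 5 NK cell markers (Prf1). Of 5 plasmacytoid dendritic cell markers (Siglech, Ccr9, Tcf4, Cox6a2 and Klk1) DESeq2 called 2. Their sum had a median of 354 CPM (228 to 473) in unirradiated and 242 CPM (156 to 420) in irradiated primaries given anti-PD-1. The irradiated maximum was in replicate 4, where muscle markers summed to 64857 CPM. In the library labelled parental tumor the sum was 209 CPM, although Siglech and Ccr9 had 0 counts there. A change in these cells can therefore not be read from the sum. Of 6 skeletal muscle markers 0 passed edgeR's threshold (5 at an unadjusted p under 0.05 and 5 by DESeq2), with a median log2 fold change of 2.85. Their sum had a median of 1008 CPM (41.4 to 6363) in unirradiated and 1454 CPM (9.41 to 64857) in irradiated libraries. The highest irradiated sums were in replicates 4 (64857 CPM) and 8 (20930 CPM). The part of these cell types was not tested.

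In transplants under anti-PD-1, 7 of the 37 genes passed the test, against 0.538% of all genes, all of them higher: Ifit1bl1, Ifit2, Irf7, Oasl1, Oas2, Herc6 and Trim30a. All 37 fold changes were positive with an unadjusted p under 0.05, their median was 1.57 (2.97-fold), and for 31 of 37 every irradiated library lay above every unirradiated one (5.63% of all genes). Ifit1bl1 went from 13.3, 7.02, 15.5 and 3.88 CPM to 92.7, 57.2, 135.7 and 54.4 CPM, 3.10 ± 0.64 (SE, adjusted p = 0.0169). Irf7 went from 241, 265, 305 and 119.5 CPM to 1668, 746, 1370.2 and 898 CPM, 2.33 ± 0.55 (SE, adjusted p = 0.0405). The irradiated libraries were split, with replicates 1 and 3 above replicates 2 and 4 for both genes. Isg15 was at 106.3, 96.4, 99.8 and 68.6 CPM before and 832, 177, 500.2 and 231 CPM after radiation, a difference of 2.23 ± 0.71 that missed the threshold (adjusted p = 0.118), as did Rsad2 at 2.48 ± 0.65 (adjusted p = 0.0567). Beside them Ptprc differed by 1.46 ± 0.42 (SE, adjusted p = 0.0777) (called by DESeq2), and 1 of 10 macrophage markers rose, whose part was not tested. The count of 7 depended on the test and on single libraries: DESeq2 called 22 of 37, limma voom 12, a fit of only the compared groups 0, and leaving out any 1 library except irradiated replicate 4 left 0 to 4.

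**Figure D3:**
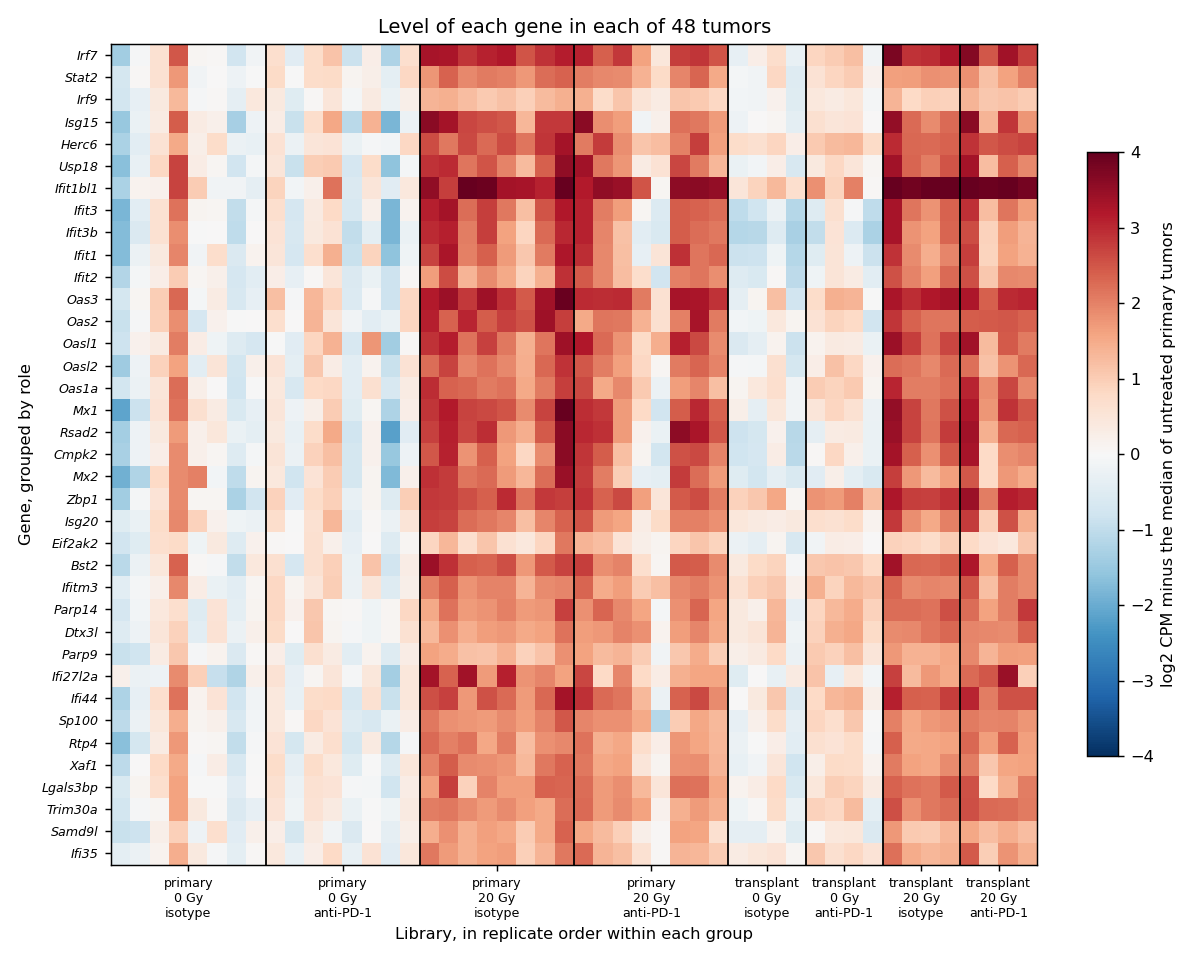
Log2 CPM of each of the 37 genes in each of 48 libraries, as the difference from the median of the 8 untreated primaries (red higher, blue lower), with genes ordered by role. The irradiated blocks are red across nearly all genes. Single columns differ from their blocks over most genes: untreated primary replicate 4 is red, and irradiated anti-PD-1 primary replicate 5 is pale.

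In some groups a single library was the highest or the lowest for most of the 37 genes. Across the 8 groups, the library with the highest mean was highest for 17 to 36 of the 37 genes. Untreated primary replicate 4 had the highest level of the 8 for 36 of 37 genes, with a mean of 7.19 log2 CPM where the next library had 5.91. That library also had 22 reads of Ifnb1, the most in its group, and NK cell markers summing to 88.6 CPM where the group's median was 12.1. Among irradiated primaries given anti-PD-1, replicate 5 was lowest for 30 of 37 genes, with a mean of 5.56. Its macrophage markers summed to 804 CPM and its Ptprc was at 57.8 CPM, both below every untreated primary. Replicate 4 of that group had the next lowest mean, 6.26, with muscle markers at a summed 64857 CPM, macrophage markers at 5165 CPM and 1 read of Ifnb1. The part of these cell types in the level was not tested. Spread was wider among untreated primaries (5.49 ± 0.85, SD, n = 8) than among untreated transplants (5.42 ± 0.38, n = 4), and this difference in spread was not tested.

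No effect of anti-PD-1 on the 37 genes passed the test. By edgeR and by DESeq2, 0 of 37 were called in each of the 4 comparisons of anti-PD-1 with isotype (each model at each dose), in which edgeR called 0% of all genes. In unirradiated transplants all 37 differences were positive, with a median of 0.57 (1.48-fold), and 0 had an unadjusted p under 0.05. Oas3 had the largest, 0.74 ± 0.52 (SE), and Isg20 the smallest, 0.19 ± 0.43. In unirradiated primaries the median was -0.11, with 31 of 37 negative and 0 at an unadjusted p under 0.05, and it was 0.30 without untreated replicate 4. After 20 Gy, all 37 were negative in primaries (median -0.43, 5 with an unadjusted p under 0.05), from -1.01 ± 0.38 for Ifi27l2a to -0.04 ± 0.22 for Dtx3l. In irradiated transplants 23 of 37 were negative, with a median of -0.07 and 0 at an unadjusted p under 0.05.

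No member's response to radiation was shown to differ between models under isotype or between antibodies. Whether it differed between models under anti-PD-1 was not tested. The interaction of radiation and model under isotype was past edgeR's threshold for 0 of 37 genes (0 with an unadjusted p under 0.05 and 0 by DESeq2; 0.00517% of all genes), with a median of 0.19 and 26 of 37 positive, and a median of -0.18 without untreated primary replicate 4. It was largest for Ifit3b, 1.18 ± 0.76 (SE, adjusted p = 0.583), and lowest for Zbp1, -0.50 ± 0.56 (SE, adjusted p = 0.739). The interaction of radiation and antibody was also past the threshold for 0 of 37 genes in each model (0 unadjusted, 0 by DESeq2; edgeR called 0% of all genes in both), with medians of -0.32 in primaries, where all 37 were negative (-0.73 without untreated replicate 4), and of -0.61 in transplants, where 36 were. In transplants, standard errors of single genes ran from 0.36 to 0.95.

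Few of the 37 genes differed between transplants and primaries under any treatment, while most genes of the interferon gamma pathway did so in unirradiated tumors. Among untreated tumors, 0 of 37 differed between transplants and primaries by edgeR and by DESeq2 (4 with an unadjusted p under 0.05; 3.88% of all genes were higher and 6.41% lower in transplants), with a median log2 difference of -0.33. Without untreated primary replicate 4 the median was 0.18 and 2 genes were called, so that the sign of the median rested on that library. Of 15 interferon gamma pathway genes, 8 were higher in untreated transplants. Ido1, the enzyme that breaks down tryptophan, was at 0.605 to 7.38 CPM in transplants against 0.0227 to 0.365 CPM in primaries, 5.11 ± 0.80 (SE, adjusted p = 4.59e-05). Ifng itself was at 1.17, 0.848, 2.09 and 0.269 CPM against 0.0227 to 0.443 CPM, 2.85 ± 0.83 (SE, adjusted p = 0.0213). Cxcl9, a chemokine that draws T cells, differed by 2.75 ± 0.64 (SE, adjusted p = 0.00366), and Irf1, a factor induced by both interferon types, by 1.23 ± 0.30 (SE, adjusted p = 0.00520). In the same comparison 1 of 6 T cell markers was higher and 2 of 5 NK cell markers were lower in transplants (2 of each list by DESeq2). The T cell markers summed to 39.9 to 88.6 CPM in transplants and 13.1 to 54.3 CPM in primaries. The sum of the NK cell markers did not follow the 2 lower ones. Its median was 24.3 CPM (range 7.04 to 35.2) in transplants and 12.1 CPM (range 5.33 to 88.6, the highest in replicate 4) in primaries. Of 5 neutrophil markers 0 passed edgeR's threshold (2 at an unadjusted p under 0.05, 2 by DESeq2). Their part in the difference was not tested. The list of 15 was compared with the 37 by its counts only.

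Under anti-PD-1 without radiation, 3 of 37 genes were higher in transplants than in primaries and 0 lower (3.39% and 3.96% of all genes). Zbp1 was at 131.2, 123.1, 152 and 86.3 CPM in transplants and at a median of 51.6 CPM (range 26.2 to 74.0) in primaries, 1.28 ± 0.39 (SE, adjusted p = 0.0321), with no overlap. Parp9 was at 116.9, 106.7, 130.6 and 78.9 CPM against 65.2 CPM (range 39.3 to 88.4), 0.85 ± 0.26 (SE, adjusted p = 0.0351), and Dtx3l at 101.4, 140.8, 154 and 89.5 CPM against 56.6 CPM (range 46.9 to 113.4), 0.82 ± 0.26 (SE, adjusted p = 0.0436), each with overlap. The count was 0 without any 1 of transplant replicates 1 to 3 or of primary replicates 2, 5, 6 and 7. In the same comparison 12 of 15 interferon gamma pathway genes were higher. After 20 Gy, 0 of 37 genes passed edgeR's or DESeq2's threshold (0 unadjusted; 2.47% of all genes higher, 2.4% lower; median -0.06), and 1 of 15 interferon gamma genes, Ido1, was higher. After 20 Gy and anti-PD-1 the counts were again 0 of 37 by both tools (5 unadjusted; 3.04% higher, 3.72% lower; median 0.36) and 1 of 15, again Ido1.

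**Figure D4:**
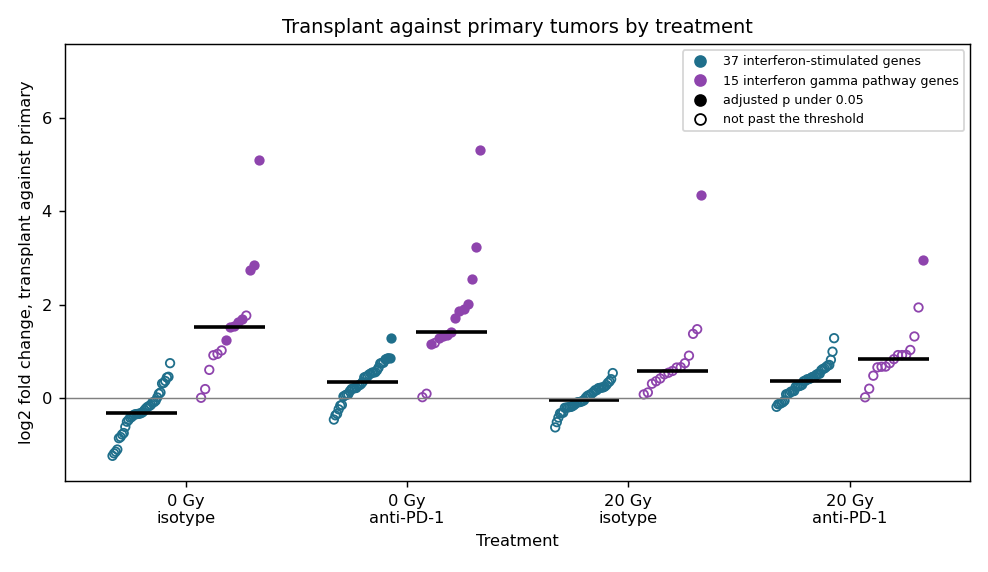
Log2 fold change of transplants against primaries under each treatment, for the 37 interferon-stimulated genes and the 15 genes of the interferon gamma pathway, with filled points past an adjusted p of 0.05, open points not past it, and a line at each list's median. Medians of the 37 genes lie at -0.33, 0.33, -0.06 and 0.36, and those of the 15 at 1.51, 1.40, 0.57 and 0.82.

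After radiation 12 of the 15 interferon gamma genes rose in primaries and 2 of 15 in transplants (Gbp3 and Irgm1; 4 by DESeq2). Under anti-PD-1 the counts were 11 and 0 of 15 (0 by DESeq2 and 1 at an unadjusted p under 0.05 in transplants). Under isotype, the difference in response between models was past edgeR's or DESeq2's threshold for 0 of the 15 (1 at an unadjusted p under 0.05). The isotype counts are therefore not shown to differ, and the difference under anti-PD-1 was not tested. Ifng went from 0.0688 CPM (range 0.0227 to 0.443) to 0.615 CPM (range 0.0681 to 2.71) in primaries, 2.27 ± 0.74 (SE, adjusted p = 0.0259), and from 1.17, 0.848, 2.09 and 0.269 CPM to 0.798, 2.42, 2.77 and 2.15 CPM in transplants, where the groups overlapped, 0.89 ± 0.95 (SE, adjusted p = 0.811). Gbp3 and Irgm1 encode GTPases that act on the vacuoles of intracellular pathogens.

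Of the ligands, only Ifnb1, the interferon beta gene, was counted often enough to test. In primaries it went from a median of 2.5 reads per library (range 0 to 22) in untreated tumors to 20 reads (8 to 57) after 20 Gy, 2.52 ± 0.68 (SE, adjusted p = 0.00723). In transplants it went from a median of 5.5 reads (5 to 6) to 20.5 reads, or from 0.143, 0.137, 0.113 and 0.112 CPM to 2.26, 0.370, 0.329 and 0.658 CPM, 2.82 ± 0.95 (SE, adjusted p = 0.127), where every irradiated library lay above every untreated one and the adjusted p missed the threshold. Under anti-PD-1 the medians went from 2 to 5.5 reads in primaries, 1.73 ± 0.69 (SE, adjusted p = 0.0967), and from 4 to 27.5 in transplants, 3.13 ± 0.98 (SE, adjusted p = 0.110), where DESeq2 called the gene. The other 10 type I interferon genes in the table, most of them interferon alphas, had at most 17 reads in any tumor, and 9 of the 10 stayed under 10. In 6 of the 8 groups the library with the highest mean of the 37 genes also had the highest Ifnb1 CPM of its group. Both values come from the same library, and no test was made.

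**Figure D5:**
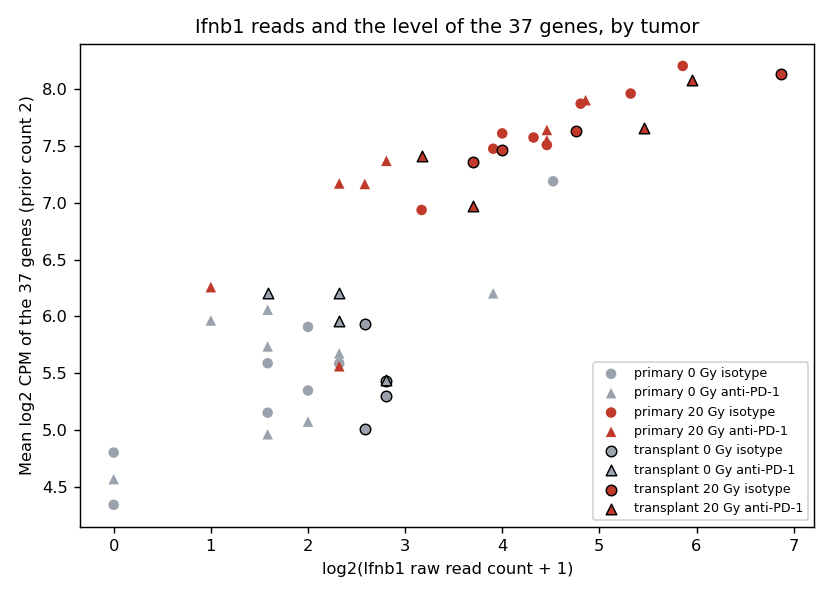
Mean log2 CPM of the 37 genes against log2(Ifnb1 reads + 1) in each of 48 tumors, by group (grey, 0 Gy; red, 20 Gy; circles, isotype; triangles, anti-PD-1; black outline, transplants). Most irradiated tumors lie to the upper right, untreated primary replicate 4 (22 reads, mean 7.19) lies near them, and the highest Ifnb1 count is in an irradiated transplant.

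Some of the receptor and signaling genes rose. Of 10, 6 rose in irradiated primaries (among them Ifnar2, Ikbke, Irf5, Irf8 and Tyk2) and 2 in transplants (Ikbke and Irf5). The receptor chain Ifnar1 had differences of -0.04 and 0.13, and Jak1 of 0.05 and 0.27. Ikbke, a kinase that activates interferon regulatory factors, rose by 1.25 ± 0.22 (SE, adjusted p = 7.63e-05) in primaries and 1.22 ± 0.31 (SE, adjusted p = 0.0261) in transplants. Irf5, a factor downstream of Toll-like receptors, rose by 1.34 ± 0.22 (SE, adjusted p = 4.00e-05) and 1.30 ± 0.32 (SE, adjusted p = 0.0193). Under anti-PD-1 the counts were 6 and 1 of 10.

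Most sensors of nucleic acid outside the 37 rose, with 9 of 12 higher in irradiated primaries and 8 of 12 in transplants. The RNA helicase Ddx58, which encodes RIG-I, rose by 1.24 ± 0.25 (SE, adjusted p = 0.000342) and 1.64 ± 0.35 (SE, adjusted p = 0.00734), its relative Dhx58 by 1.83 ± 0.29 (SE, adjusted p = 2.20e-05) and 2.03 ± 0.41 (SE, adjusted p = 0.00447), and Tlr9, the endosomal receptor for unmethylated DNA, by 1.67 ± 0.35 (SE, adjusted p = 0.000745) and 2.20 ± 0.51 (SE, adjusted p = 0.0133). Cgas, the sensor of cytosolic DNA, rose in primaries by 0.54 ± 0.16 (SE, adjusted p = 0.0147) and differed by 0.58 ± 0.22 (SE, adjusted p = 0.226) in transplants. The adaptors Mavs and Tmem173 (STING) did not pass the threshold in either model, at -0.12 and 0.28 in primaries and 0.17 and 0.52 in transplants. Under anti-PD-1, 8 of 12 sensors rose in primaries and 1 of 12 in transplants, where DESeq2 called 5 and 10 had an unadjusted p under 0.05. Of 6 negative regulators, 5 rose in primaries and 3 in transplants, among them Adar, which edits double-stranded RNA, at 1.14 ± 0.18 and 1.45 ± 0.26 (SE), and Samhd1, which degrades nucleotides, at 1.54 ± 0.24 and 1.25 ± 0.34, with 5 and 0 of 6 under anti-PD-1 (in transplants 3 at an unadjusted p under 0.05, 1 by DESeq2). Of the type III interferon pathway, Il10rb, a receptor chain shared with interleukin 10, rose in primaries by 0.60 ± 0.15 (SE, adjusted p = 0.00446), and differed by 0.42 ± 0.21 (SE, adjusted p = 0.440) in transplants.

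Per kilobase of exon, the level of the set was highest for a few genes. In untreated primaries the medians were highest for Ifitm3 (418 CPM per kilobase), Ifi27l2a (167), Bst2 (133.6), Isg15 (91.5) and Lgals3bp (66.6), and lowest for Herc6 (0.875). Ifitm3 was first, Isg15 next after Ifi27l2a and Bst2, and Herc6 last in all 4 isotype groups. After 20 Gy the medians of Ifitm3 were 1622 in primaries and 1581 in transplants.

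The library labelled parental tumor held the set at a mean of 4.58 log2 CPM and the library labelled cells at 4.94, where untreated primaries ran from 4.34 to 7.19. In the former, 25 of 37 genes lay within the range of the untreated primaries, 11 below and 1, Eif2ak2, above. Isg15 was at 101.1 CPM there, Ifit1 at 52.9 and Bst2 at 228, beside Mx1 at 0.894, Zbp1 at 2.39 and Ifit1bl1 at 0.112. These levels thus stood beside Ptprc, macrophage and T cell markers at or near 0 (0.112, 9.83 and 0.201 CPM). In the library labelled cells 35 of 37 lay within that range and Oas3 and Ifi27l2a below it. Both are single libraries, with no replicate and no test.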

How the data were processed

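RNA of 50 tumor or line libraries was sequenced after an oligo-dT, stranded mRNA library kit, and the authors deposited raw counts per gene, made by trimming with Trimmomatic 0.36, alignment with STAR to mm10 and counting by the HTSeq method on GENCODE M17. Whether reads were counted by strand is not given in the sources used here, and reads of near-identical genes (such as Ifit3 and Ifit3b) may be split between copies. Symbols came from GENCODE M21 and matched 37408 of 37469 identifiers. Groups came from the labels, and replicates were numbered in accession order, which pairs nothing. The counts of 48 tumors were filtered (filterByExpr, minimum count 10, minimum total 15), scaled by TMM and fitted in edgeR 4.0.16 under R 4.3.3 with 1 mean per group, and 15 comparisons were tested by the quasi-likelihood test, two-sided. A standard error is the fold change divided by the square root of its F. Log2 CPM used a prior count of 2, and marker sums, like the line libraries, were scaled over 50 libraries. Alternatives were DESeq2 1.42.0, limma voom (limma 3.58.1), RLE scaling, no filter, only the compared groups, the library labelled parental tumor added, each library left out, and a prior count of 0.25. The fit was also run on simulated counts with known changes. These started from a common baseline for all groups, unlike the tumors here, and nothing above is drawn from that run. All 136 pairs of libraries within groups differed by more than sampling noise. The 37 members and the other lists were chosen with earlier results of these data known. Values per library are given for 14 members that stand for the roles, and in each comparison the members of largest and smallest change, and those called where few were, were eligible to be named. Depth (31810461 to 54008259 counts per tumor) limits low genes such as Ifnb1 and Ifng. Some type I interferon alphas and Trex1 were not analysed here. Values of 1 signaling gene are not reported here.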

Additional observations from a re-analysis of the deposited data

Results flagged for a closer look

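Of 120 groups of values (the 14 members that stand for the roles, and the mean of the 37, in each group of tumors), 9 had a highest or lowest library that lay far from the others by Dixon's criterion, which chance meets in about 1 in 20 groups. Among untreated primaries the highest library stood apart for Isg15 (8.52 log2 CPM), Oas1a (7.18), Bst2 (9.27) and Ifitm3 (10.06), and it was replicate 4 each time. Among irradiated transplants given the isotype antibody the highest library, replicate 1, stood apart for Oas1a (7.99), Bst2 (10.29) and Ifitm3 (10.48). Among unirradiated transplants given anti-PD-1 the lowest library stood apart for Oas1a (5.06) and Bst2 (7.70). The mean of the 37 was flagged in no group, those of untreated primary replicate 4 and irradiated anti-PD-1 primary replicate 5 included.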

How the results depend on the processing

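No paired analysis was possible because the labels give no replicate numbers, and the numbers used here only name libraries. All 37 members were higher after radiation alone in primaries under every alternative, 37 to 37 when libraries were left out and 36 to 37 under anti-PD-1, and no member changed sign in any of the 4 radiation comparisons. In transplants after radiation alone, leaving out libraries gave 12 to 36 calls, limma voom 36 and no filter 29. In transplants under anti-PD-1, DESeq2 gave 22, voom 12, RLE 8, no filter 1, only the compared groups 0, and leaving out libraries 0 to 8. Between models under anti-PD-1, no filter gave 0, RLE 2 and leaving out libraries 0 to 3. Between untreated models leaving out libraries gave 0 to 2, and after 20 Gy and anti-PD-1 voom gave 1. The causes were not tested. A prior count of 0.25 moved the mean level of the 37 genes by less than 1 SD in every group. Of 145 fold changes of named members, 2716 alternative values were computed, of which 58 turned sign and 2505 kept both sign and side of the threshold. When libraries were left out, the sign turned for anti-PD-1 in unirradiated primaries for Ifit3b (-0.54 to 0.093) and Usp18 (-0.62 to 0.32), and in irradiated primaries for Rsad2 (-0.36 to 0.042) and Dtx3l (-0.084 to 0.092). It turned between models after 20 Gy and anti-PD-1 for Ifit3b (-0.59 to 0.096, and 0.15 by voom) and Mx2 (-0.51 to 0.065, and 0.13 by voom). It turned for the interaction of radiation and antibody in primaries for Mx2 (-0.41 to 0.16), Rsad2 (-0.42 to 0.30) and Usp18 (-0.85 to 0.10, and 0.0026 with the library labelled parental tumor added), and in transplants for Ifit1bl1 (-0.47 to 0.15), Isg20 (-0.53 to 0.081) and Ifi27l2a (-0.37 to 0.51). Depth limits Ifnb1, at 0 to 6 reads in most untreated tumors.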
